A study of Rattus norvegicus with 2 samples.

Results

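The cells described here were hypothalamic tanycytes that carried markers of the median-eminence subtype. They were taken from a single-cell RNA-sequencing experiment on female Sprague Dawley rats of 4 weeks (postnatal day 29), in which hypothalamic tissue of 3 rats was pooled into 1 library for Control and 1 library for SC300. SC300 rats, labelled EB300 in the sample titles, had been given 300 µg of estradiol benzoate in a capsule under the skin on postnatal day 0.5, while Control rats are called intact in the labels and are said in the methods to have carried a capsule with oil alone. The series' design text names only oil in the SC300 capsule, so the agent given to SC300 rests on the titles and the methods. A cell was taken as a member when its barcode had at least 200 detected genes, a unique molecular identifier (UMI, a counted molecule) of at least 3 of Crym, Lhx2, Stra6, Calml4, Gsta1, Ppp1r1b and Rax, fewer than 2 UMIs of the neuronal gene Snap25, under 10 UMIs per 10000 of the ciliary genes Tmem212, Ccdc153 and Pifo together, and at least 1 UMI of Adm, Frzb, Col25a1 or Scn7a. This left 179 of the 8675 cells kept, 112 of 4296 in Control and 67 of 4379 in SC300. Because the rats of a group were pooled, no test between the groups was possible, and all intervals below are exact 95% intervals that cover counting error only.

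Tanycytes are elongated glial cells that line the floor of the third ventricle. Those of the median eminence send a process to the capillaries that carry releasing hormones to the pituitary, and they form a barrier between blood and cerebrospinal fluid. They are known for uptake and conversion of thyroid hormone and retinoids, and their end feet surround the terminals of gonadotropin-releasing hormone neurons.

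The members held 1517792 UMIs in Control and 1265537 in SC300, with medians of 12773 and 13339 UMIs per cell, against 7986 and 8182 over all kept cells, and 3619 and 3495 detected genes. The deepest member held 71507 UMIs in Control and 127319 in SC300. Mitochondrial genes took a median of 13.3% and 14.6% of a member's UMIs. The doublet caller marked 2 Control and 3 SC300 members, and none of the 9 barcodes that occurred in both libraries was a member (0 in each library).

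Members made up 2.61% of the kept Control cells (interval 2.15 to 3.13%) and 1.53% of the kept SC300 cells (1.19 to 1.94%), a log2 ratio of −0.77 (−1.23 to −0.32). All tanycytes, with or without the 4 markers, were also a smaller share in SC300, at 5.50% against 8.19%. Members with Frzb, Col25a1 or Scn7a were 2.35% of the kept Control cells (1.92 to 2.85%) and 1.19% of the kept SC300 cells (0.888 to 1.55%). Members with Adm as the only marker were 0.256% (0.128 to 0.458%) and 0.343% (0.192 to 0.564%). Within the tanycytes, the members were 112 of 352 in Control (31.8%, 27.0 to 37.0%) and 67 of 241 in SC300 (27.8%, 22.2 to 33.9%), and the interval of their log2 ratio of −0.19 ran from −0.65 to 0.25. When each cell was thinned to 2000 UMIs before the rule was applied, which left out 369 Control and 189 SC300 cells that were shallower, the members were 51 of 172 Control tanycytes (29.7%) and 20 of 89 SC300 tanycytes (22.5%), and 1.30% and 0.477% of the thinned cells, a log2 ratio of −1.44. Dissociation and capture can set such shares, and with 1 pool in each group their part cannot be told apart from that of the implant.

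Many members lay close to the limits of the rule. Exactly 3 tanycyte genes were detected in 16 Control and 15 SC300 members, while 42 and 52 cells with 2 tanycyte genes met all other conditions and stayed outside. A single UMI of the 4 markers carried 30 Control and 21 SC300 members, and 240 and 174 tanycytes had none. The median member had 5 marker UMIs in each library, and the highest had 62 in Control and 50 in SC300. A ciliary sum from 8 to just under 10 UMIs per 10000 was seen in 10 Control members and 1 SC300 member, and 6 Control cells and 1 SC300 cell lay just outside, from 10 to 12.

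Frzb, which encodes a secreted Wnt antagonist, was the marker that brought in most members. It had a UMI in 96 of 112 Control members (867 UMIs) and in 47 of 67 SC300 members (526 UMIs), or 571 and 416 UMIs per 1000000 UMIs of the members (CPM). In the microglia-type cells, which should lack it, Frzb had a UMI in 0.222% of Control and 0.444% of SC300 cells, at median depths of 7553.5 and 8011 UMIs. Scn7a, a sodium channel gene, was found in 19 Control members (19.1 CPM) and 27 SC300 members (41.1 CPM). Col25a1, a membrane collagen gene, was found in 25 and 17 members at 17.8 and 15.8 CPM. Adm, which encodes the vasoactive peptide adrenomedullin, was found in 18 and 21. Frzb was the only marker in 57 Control and 15 SC300 members, and it occurred together with Col25a1 or Scn7a in 35 and 29. The members were chosen by these UMIs, so the values are given as a description.

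**Figure D1:**
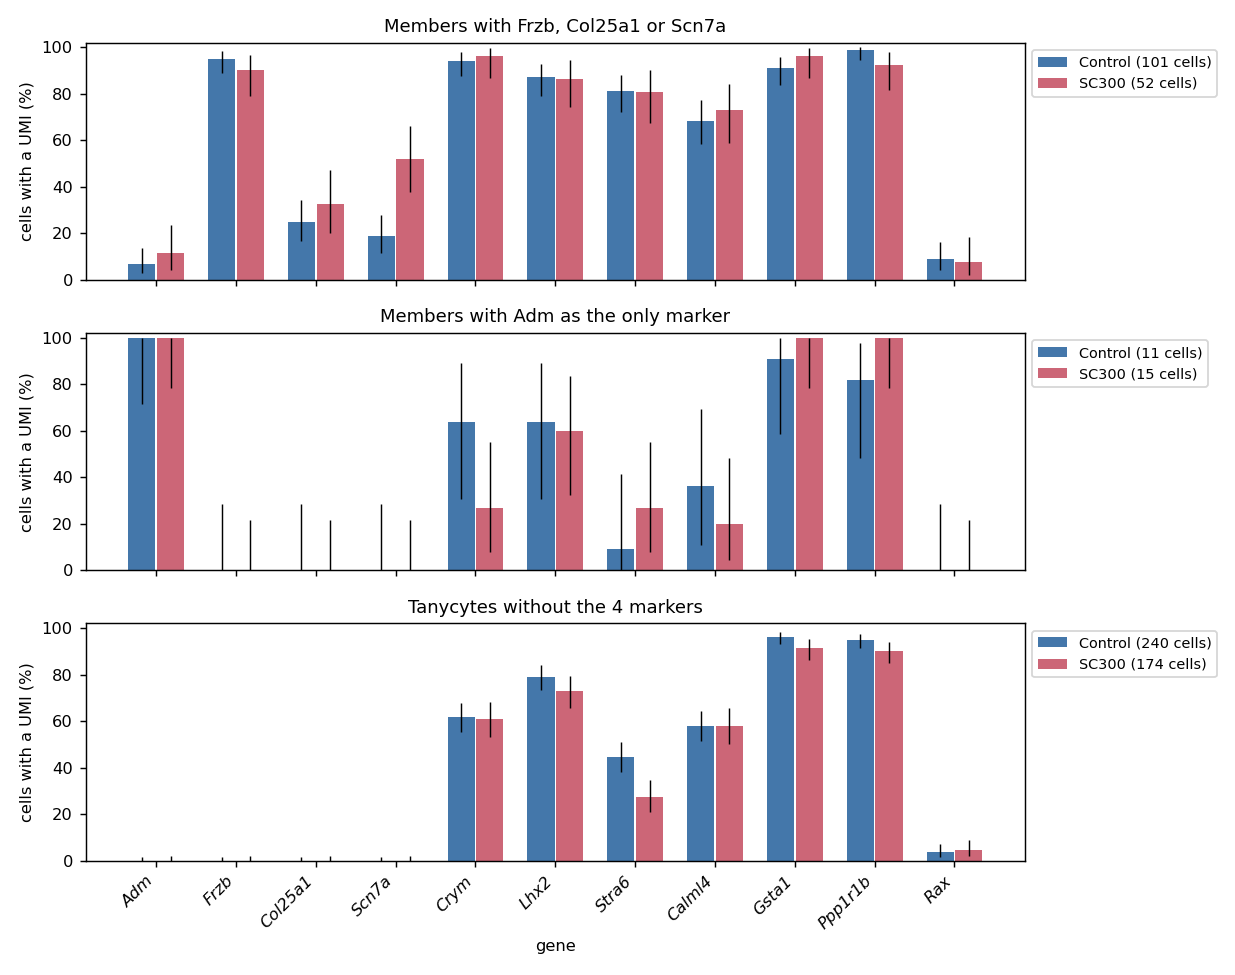
Share of cells (%, vertical axis) with at least 1 UMI of each rule gene (horizontal axis) in members with Frzb, Col25a1 or Scn7a, in members with Adm as the only marker and in tanycytes without the 4 markers. Bars are the Control and SC300 libraries and lines are exact 95% binomial intervals. Crym was in 94.1% and 96.2% of the first group but in 63.6% and 26.7% of the Adm-only members. Rax was in 8.91% and 7.69% of the first group and in none of the Adm-only members.

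The members with Adm alone differed from the rest in the rule's own genes, which is a description, and in astrocyte genes that the rule did not use. Crym, a thyroid hormone binding protein and a tanycyte marker, stood at 3479 CPM in Control and 5235 CPM in SC300 in the 101 and 52 members with Frzb, Col25a1 or Scn7a. The remaining 11 Control members (9.82%, 5.01 to 16.9%) and 15 SC300 members (22.4%, 13.1 to 34.2%) had Adm as their only marker, and there Crym was at 890 and 336 CPM. A single cell held 146 of the 154 Control UMIs and 60 of the 75 SC300 UMIs of Crym, and the median Adm-only member held 0.37 and 0 UMIs per 10000. These cells held a median of 3 tanycyte genes in each library, against 6 and 5.5 in the others. They held no UMI of Rax, a tanycyte transcription factor. Rax was also rare in the others, in 9 of 101 and 4 of 52, so its absence from so few cells does not set them apart. The 13 astrocyte genes of a fixed list summed to 19853 and 13500 CPM in the Adm-only members, led by Agt at 5446 and 3757 CPM, against 2904 and 2071 CPM in the members with another marker. Cldn5, a tight-junction gene of endothelial cells, was at 370 and 1916 CPM in the Adm-only members, while Plvap, an endothelial marker of leaky capillaries, was at 0 in both libraries. Adm itself had a UMI in 4.51% of Control and 8.66% of SC300 astrocyte-type cells, and in 0.889% and 1.11% of microglia-type cells. The Adm-only members are therefore called by their marker here, and many of the results, though not all, are given with and without them.

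Rax itself was rare in the members as a whole, with 9 UMIs in Control and 4 in SC300. The neuronal list gave 298 and 356 CPM over the members, led by Uchl1, and Slc32a1 was at 0 in both libraries. Of the microglial list, Cx3cr1 and P2ry12 were at 0 in both libraries, and the 9 genes summed to 23.1 and 19.0 CPM, led by C1qa at 6.59 and 4.74 CPM. The pituitary markers Cga, Tshb and Pitx1 were also at 0 in both libraries.

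**Figure D2:**
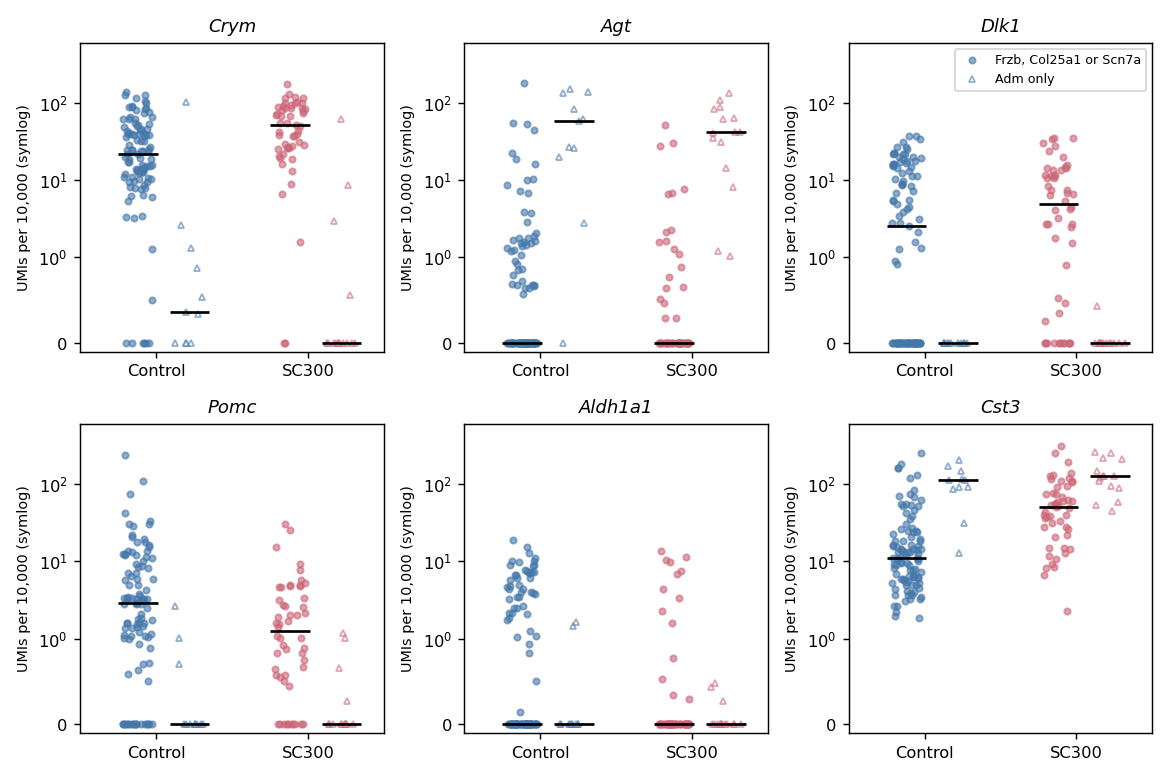
UMIs per 10000 of the cell (vertical axis, linear below 1 and logarithmic above) in each member for 6 genes, by library; circles are members with Frzb, Col25a1 or Scn7a, triangles are Adm-only members and black lines are medians. Agt had a median of 57.7 and 42.1 in Adm-only members of Control and SC300 and of 0 in the others, while the median of Cst3 in the others was 11.1 in Control and 51.1 in SC300.

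The members were compared with the 414 tanycytes that met the rest of the rule but lacked the 4 markers (240 in Control, 174 in SC300). This split followed the rule, so it is a description without a test. Of 7490 genes with at least 100 UMIs over the 4 groups of cells and outside the rule, 64 (0.854%) were at least 2-fold higher in members in both libraries and 220 (2.94%) were at least 2-fold lower. The lower count depended on the Adm-only members and on the rule, with 478 genes without those members and 100 when 4 tanycyte genes were required. The higher count went to 39 with that requirement, to 27 after thinning to 2000 UMIs per cell and to 105 at a limit of 50 UMIs per gene. Ranked by the smaller of the ratios in the 2 libraries, Dlk1, which encodes a Notch-ligand homologue shed from immature cells, led the higher genes with 631 CPM in Control members against 7.11 CPM in other tanycytes, and with 484 against 22.9 CPM in SC300. The log2 ratio was 6.47 (5.85 to 7.17) in Control and 4.40 (4.01 to 4.81) in SC300. Dlk1 did not mark every member: it had a UMI in 57 of 112 Control and 42 of 67 SC300 members, and its highest cell had 36.7 and 34.6 UMIs per 10000. Among the Adm-only members it was seen in 0 of 11 and 1 of 15.

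Other genes among the 10 highest had a range of functions. Six6, a transcription factor of the ventral hypothalamus and pituitary, was at 123 and 90.9 CPM in members against 5.08 and 11.3 CPM in other tanycytes. Pou3f1, another transcription factor, was higher by log2 ratios of 2.86 and 2.83, and Gpx3, a secreted glutathione peroxidase, by 2.85 and 3.27. Galp, which encodes galanin-like peptide, was at 56.7 and 27.7 CPM in members against 9.15 and 2.72 CPM. Of the other genes in the 10 highest, Lrrtm3, a synaptic adhesion gene, gave log2 ratios of 4.87 and 2.37, and the serine protease gene Prss23 gave 2.72 and 2.30. LOC102553088 gave 3.94 and 3.95 and AC126641.1 gave 7.30 and 4.02, and Csap1 was set aside because 3 cells held 61.4% of its Control UMIs.

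Pomc, the precursor of melanocortins and a neuronal and pituitary peptide gene, was also among the 10 highest. It stood at 965 CPM in Control members against 97.6 CPM in other tanycytes, 17.6 CPM in astrocyte-type and 9.99 CPM in microglia-type cells. A Pomc UMI was found in 77.7% of Control members against 6.89% of microglia-type cells, and after thinning to 2000 UMIs in 47.7% against 1.84%. Nearer cell sets held it more often, with a UMI in 38.3% of the other Control tanycytes (12.7% after thinning) and in 69.4% of the Control cells past the ciliary limit (22.5% after thinning, at 212 CPM). The level varied widely between members: the median cell held 2.56 UMIs per 10000 and the highest 241, and 3 cells held 46.7% of the Control UMIs.

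The genes lowest in members against other tanycytes included glial and homeobox genes. Aldh1l1, an astrocyte folate enzyme, was at 8.57 and 3.95 CPM against 44.4 and 43.9 CPM, and Cd44, a hyaluronan receptor, at 3.29 and 4.74 CPM against 35.2 and 47.4 CPM. Without the Adm-only members the log2 ratio of Aldh1l1 went from −2.37 to −3.31 in Control and from −3.48 to −4.52 in SC300, and that of Cd44 from −3.42 to −4.57 and from −3.32 to −3.04. The homeobox genes Msx1 and Irx1 gave log2 ratios of −2.76 and −2.42 in Control and of −2.56 and −3.59 in SC300. Txnip, a thioredoxin inhibitor, was lower by log2 ratios of −2.34 and −2.43 and the secretory kinase gene Fam20a by −4.04 and −4.81. S100a3, Stap2, LOC680875 and LOC103691556 completed the 10 lowest. The other tanycytes carried 13398 and 11998 CPM of the astrocyte list, and its part in these differences was not tested.

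**Figure D3:**
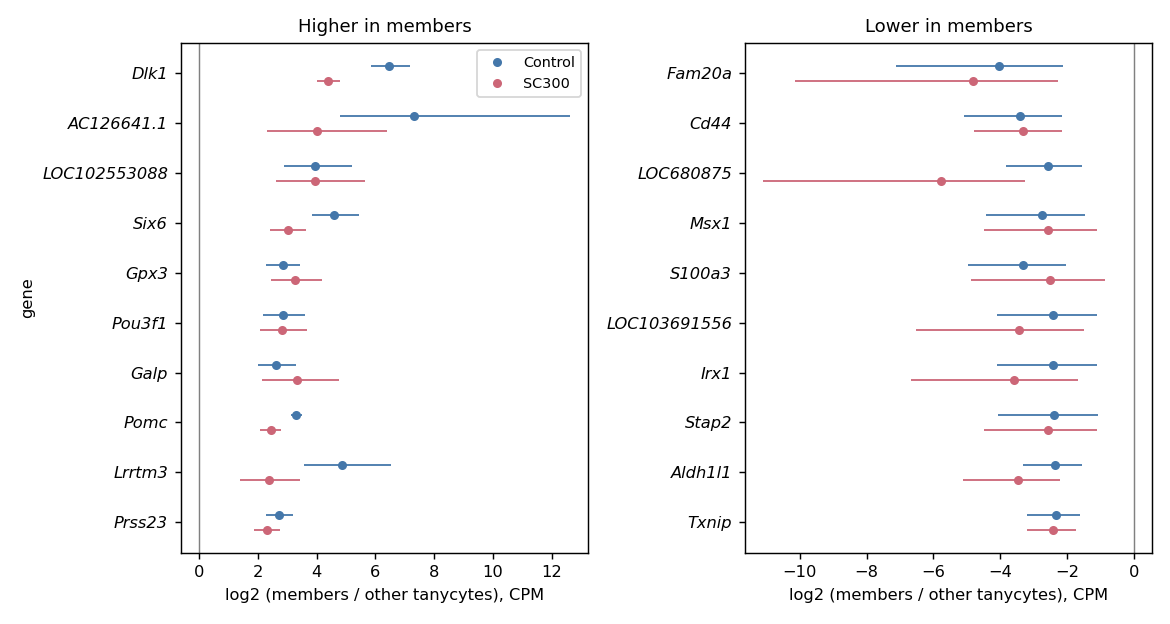
Log2 ratio of CPM in members over other tanycytes (horizontal axis) for the 10 highest and 10 lowest genes outside the rule, with points for the Control and SC300 libraries and lines for exact 95% intervals. Dlk1 stood at 6.47 in Control and 4.40 in SC300; 4 of the other 9 genes on the left had ratios that differed between the libraries by less than 0.5.

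Genes of tanycyte function outside the rule were part of this picture. Of 10 tested genes of a tanycyte list, 4 were at least 2-fold higher in members in both libraries and 1 was lower, against 0.854% and 2.94% of all 7490 genes. Trhde, the ectoenzyme that degrades thyrotropin-releasing hormone, was at 76.4 and 34.0 CPM in members against 36.2 and 6.22 CPM in other tanycytes. Fgf10, a growth factor of hypothalamic progenitors, was at 56.0 and 73.5 CPM against 13.9 and 35.8 CPM. Six3, a forebrain transcription factor, was higher by log2 ratios of 1.20 and 1.46, and Gpr37l1, a glial receptor, was lower by −1.03 and −1.02. Aldh1a1, a retinal dehydrogenase that makes retinoic acid, was at 212 and 57.7 CPM against 81.6 and 12.4 CPM. The matrix list gave 1 gene higher and 5 lower of 12 tested, and the lipid and glucose list 0 higher and 6 lower of 16, beside the same 0.854% and 2.94%. Markers of other glia were lower as well, with 0 higher and 6 lower of 13 astrocyte genes and 0 higher and 4 lower of 8 oligodendrocyte genes.

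Between the groups, the members' UMIs were summed in each library. Of 3944 genes with at least 100 UMIs in the members, 60 (1.52%) were at least 2-fold lower in SC300 and 29 (0.735%) were at least 2-fold higher, and the median log2 ratio of SC300 over Control was −0.06. In the other tanycytes the shares were 0.839% and 1.06% of 6318 genes. The counts in the members depended on the processing, and ranged from 25 to 112 lower and from 4 to 82 higher under the alternatives. The lower genes included class I histocompatibility genes, Aldh1a1, Serpinf1 and Pomc, and the higher genes included Cst3, Map2, Hspb1 and Myl9. Without the Adm-only members, 58 of 3493 genes (1.66%) were lower and 22 (0.63%) higher. Of these, 39 of the lower genes (65.0% of the first list, 67.2% of the second) and 12 of the higher genes (41.4% and 54.5%) were on both lists.

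**Figure D4:**
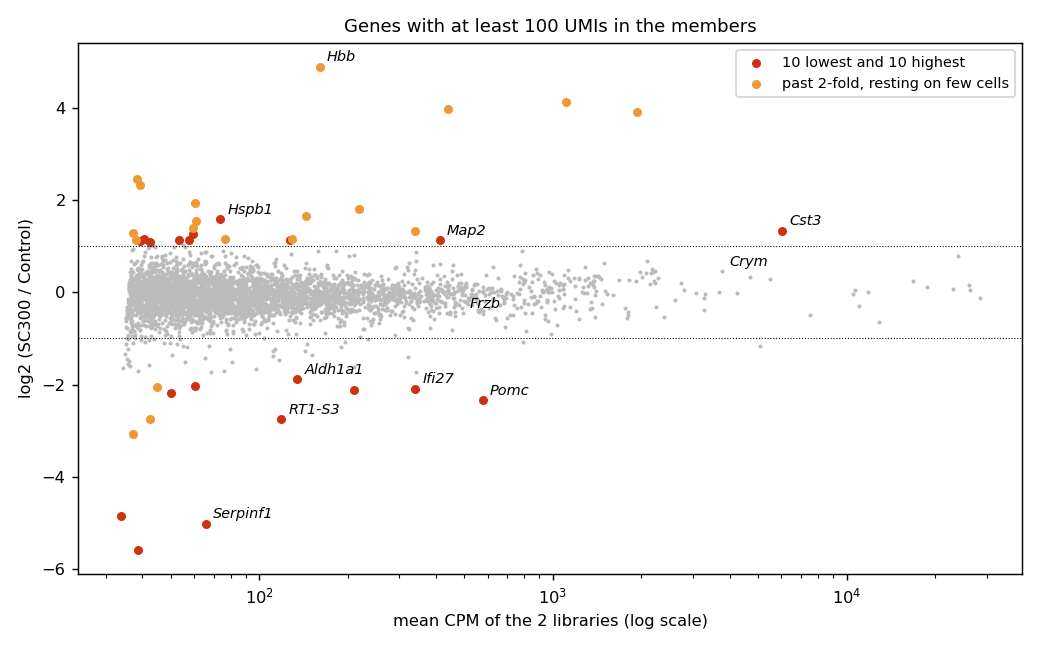
Log2 ratio of SC300 over Control (vertical axis) against the mean CPM of both libraries (horizontal axis, log scale) for the 3944 genes tested in the members. Red points are the 10 lowest and 10 highest genes, orange points are genes past 2-fold that rest on few cells and dotted lines mark 2-fold; haemoglobin genes such as Hbb lie at the top and Serpinf1 near the bottom.

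Serpinf1, which encodes the secreted antiangiogenic factor PEDF, had 194 UMIs in 39 of the 112 Control members and 5 UMIs in 4 of the 67 SC300 members. This was 128 against 3.95 CPM, a log2 ratio of −5.02 (−6.65 to −3.77). No Adm-only member held a UMI of it, and its level in Control was 22.7 CPM in other tanycytes, 0.329 CPM in astrocyte-type and 0 in microglia-type cells. In other tanycytes the SC300 level was 1.17 CPM, with 3 UMIs against 67.

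Class I histocompatibility genes, which encode the chains that present peptides to T cells, gave 3 of the 10 lowest genes. Reads of such genes can be shared among near-identical copies, so each assignment is uncertain. RT1-A1 had 103 UMIs in 66 Control members and 0 in SC300, at least 28.6-fold lower when 3 UMIs over the SC300 members are taken as the limit that a count of 0 allows. RT1-T24-4 was counted at 115 and 2 UMIs, and its log2 ratio was −5.58 (−8.65 to −3.70). RT1-S3 had 314 UMIs in 87 Control members and 39 UMIs in 22 SC300 members, or 207 and 30.8 CPM (−2.75, −3.27 to −2.26). Of 18 listed class I genes, 7 reached 100 UMIs, 3 were at least 2-fold lower and 0 higher, against 1.52% and 0.735% of all genes, and the list's median was −0.54 against −0.06. RT1-A1 and RT1-T24-4 reached 100 UMIs only through Control, so this count is a description. The other 4 of the 7 were RT1-CE4 (0.07), RT1-CE10 (−0.54), RT1-M3-1 (−0.32) and the light chain B2m (−0.14). Without the Adm-only members RT1-A1 and RT1-T24-4 had 91 and 95 UMIs in Control and 0 in SC300, under 100 UMIs, and RT1-S3 gave −2.76. The list then had 1 lower and 0 higher of 5 tested genes, beside 1.66% and 0.63% of all genes. Its median was −0.34 against −0.04. Other tanycytes gave −5.26 for RT1-A1, −5.83 for RT1-T24-4 and −2.65 for RT1-S3. The values of RT1-T24-4 and RT1-S3 were close to those in the members, where RT1-A1 had only a bound. In microglia-type cells RT1-A1 was at 773 against 28.7 CPM and RT1-S3 at 57.2 against 48.2 CPM.

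Ifi27, an interferon-inducible gene, had 834 UMIs in 97 of 112 Control members and 163 UMIs in 27 of 67 SC300 members. The levels were 549 and 129 CPM, a log2 ratio of −2.09 (−2.34 to −1.85), and −3.16 without the Adm-only members. The median Control member held 4.69 UMIs per 10000 and the median SC300 member 0. Other tanycytes gave −1.22 and microglia-type cells −1.36. Ifi27 was the only 1 of 19 listed interferon-response genes with 100 UMIs in the members.

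The start regions of Ifi27 and RT1-S3 are shown because they are the 2 of the 10 lowest genes, 9 of which were matched in RefSeq, whose window holds the core of the interferon response element (GAAA repeated after a gap of 2 bases) on either strand. The sequences run from 250 bases before to 50 bases after the start of the gene in RefSeq's GRCr8 assembly, which is not the build of the counts, and capitals mark the matches. Ifi27 lies on the plus strand at chr6:128355062-128355361 and RT1-S3 on the plus strand at chr20:2675278-2675577.
Ifi27: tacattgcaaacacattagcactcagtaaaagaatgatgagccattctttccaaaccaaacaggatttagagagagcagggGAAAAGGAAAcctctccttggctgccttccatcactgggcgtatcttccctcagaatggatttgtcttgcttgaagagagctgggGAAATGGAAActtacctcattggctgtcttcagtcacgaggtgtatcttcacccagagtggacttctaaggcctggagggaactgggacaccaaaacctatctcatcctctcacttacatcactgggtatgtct
RT1-S3: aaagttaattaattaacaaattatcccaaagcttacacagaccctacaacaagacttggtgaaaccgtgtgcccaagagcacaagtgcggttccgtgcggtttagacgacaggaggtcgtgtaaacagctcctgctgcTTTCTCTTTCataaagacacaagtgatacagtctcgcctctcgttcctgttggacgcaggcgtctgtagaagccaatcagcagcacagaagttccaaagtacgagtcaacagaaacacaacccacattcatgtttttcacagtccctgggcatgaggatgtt
The motif occurred in 1034 of 27457 promoters of that length (3.77%). Ifi27 held 2 matches on the plus strand and RT1-S3 held 1 on the minus strand. None of the 6 matched genes among the 10 highest held it (0). The estrogen response element (GGTCA and TGACC with 3 bases between) was in 7 of all promoters and in 0 of the 9. The retinoic acid element (AGGTCA repeated after 5 bases) was in 3 promoters and likewise in 0 of the 9. Such matches are a description of the letters and do not show binding.

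Pomc was lower in SC300 members as well. It had 1464 UMIs in 87 Control members and 241 UMIs in 46 SC300 members, or 965 and 190 CPM (log2 ratio −2.34, −2.54 to −2.14). With the 3 cells richest in Pomc left out of each library the ratio was −1.94. The share of members with a Pomc UMI was 77.7% in Control against 68.7% in SC300, and 47.7% against 21.5% after thinning. Pomc in microglia-type cells was at 9.99 and 8.42 CPM. Other tanycytes gave −1.46 and cells past the ciliary limit −1.38.

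Genes of a retinoid list were led by Aldh1a1 among those lower in SC300. The list holds genes of vitamin A uptake and conversion, and also nuclear receptor genes and Rarres2. Of 17 listed genes 6 reached 100 UMIs, all 6 with a ratio below 0 and 3 with an interval below 0 (17% over all genes). Of the 6, 1 was at least 2-fold lower and 0 higher (1.52% and 0.735% over all genes), and the median was −0.52 against −0.06 over all genes. Aldh1a1 had 322 UMIs in 50 Control members and 73 UMIs in 17 SC300 members, or 212 and 57.7 CPM (−1.88, −2.27 to −1.51). Stra6, the retinol uptake receptor and a rule gene, gave −0.64, as did Rarres2, the chemerin gene. The counts and the median of the list include Stra6, which the rule used to choose members, so they are a description. Rbp4, Rara and Rxrb gave −0.21, −0.41 and −0.33. In the cells that met the rule at 2000 UMIs, Aldh1a1 gave −0.51, short of 2-fold. Other tanycytes gave −2.71 for Aldh1a1.

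Thyroid and carrier genes showed differences of smaller size. Trhde was counted at 116 and 43 UMIs (log2 ratio −1.17, −1.71 to −0.65), which became −0.52 in the cells that met the rule at 2000 UMIs. Slco1c1, the thyroxine transporter, was at 351 and 266 CPM (−0.40). Crym was at 3184 and 4370 CPM (0.46, 0.40 to 0.51), but the rule used it to choose members, so its value is a description. Of 11 listed genes of thyroid hormone handling, 6 were tested, 1 was at least 2-fold lower and 0 higher (1.52% and 0.735% over all genes). Their intervals lay below 0 for 3 and above 0 for 1 (17% and 8.72% over all genes). List counts that include Crym are a description, because the rule used that gene. Dbi, the acyl-CoA binding protein and source of endozepines, was present in all members at 6982 and 3122 CPM (−1.16, −1.21 to −1.11). The median Control member held 70.8 UMIs of Dbi per 10000 and the median SC300 member 31.2. Apoe, the lipoprotein of glia, was at 15667 and 10064 CPM (−0.64). Of 13 tested genes of glucose, lactate and lipid handling, only Dbi passed 2-fold, 1 lower and 0 higher, with a median of −0.15, 5 intervals below 0 and 2 above 0, against 17% and 8.72% of all 3944 genes. When the Adm-only members were left out, 9 of 11 tested genes had an interval below 0 and 1 above 0, and the median was −0.56, with Dbi at −1.14 and Apoe at −0.94. Over all 3493 genes tested in those cells, 573 and 371 intervals lay below and above 0, and the median was −0.04.

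Other genes among the 10 lowest were Ces1d, a carboxylesterase, with 521 and 100 UMIs (−2.12), Tnfrsf9, a costimulatory receptor, with 125 and 23 (−2.18), and Clec3b, which encodes tetranectin, with 148 and 30 (−2.04). Csap1, Scgb1c1 and LOC100911545 were lower too but rested on few cells, with over 50% of their Control UMIs in 3 cells. Beyond these, Sfrp2, a secreted Wnt modulator, had 225 and 59 UMIs (−1.67). Igfbp5, an IGF-binding protein, had 145 and 45 (−1.43, and −2.45 without the Adm-only members), and Hmox1, the haem oxygenase, 76 and 27 (−1.23). Dbp, a clock output factor, had 476 and 197 UMIs (−1.01). The time of day of tissue collection is not given in the sources used here.

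**Figure D5:**
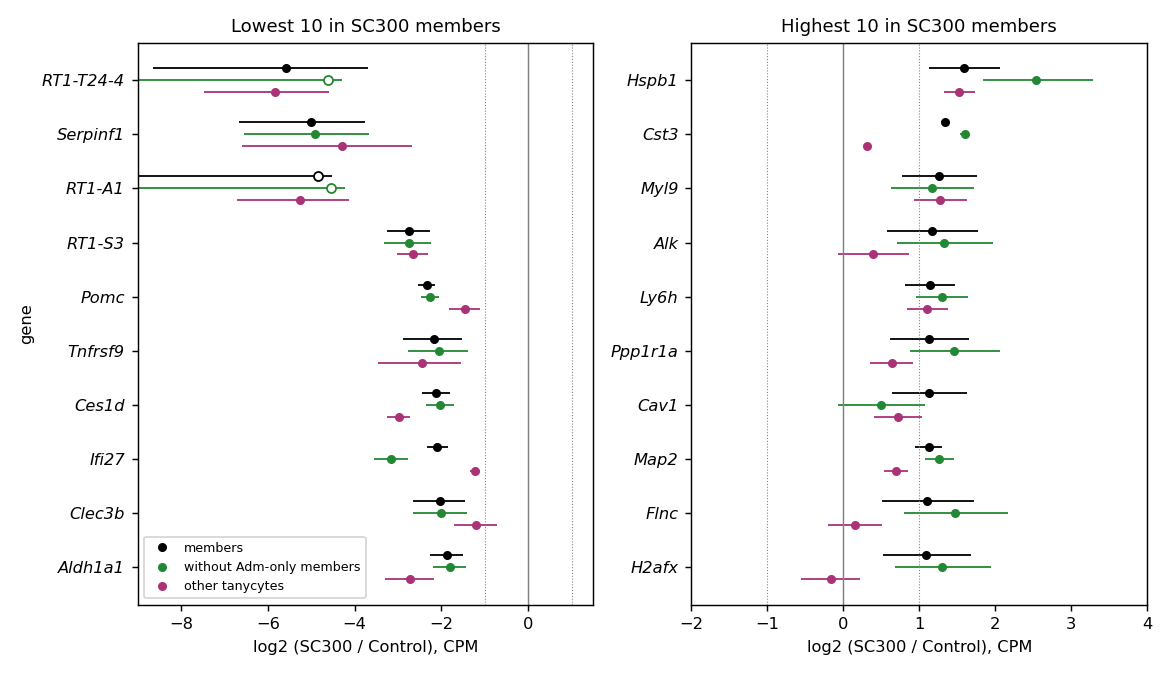
Log2 ratio of SC300 over Control (horizontal axis) for the 10 lowest and 10 highest genes of the members, in all members, in members without the Adm-only cells and in other tanycytes; lines are exact 95% intervals, cut at the panel edge. Open circles are bounds from a count of 0 in SC300 set to 3 UMIs, dotted lines mark 2-fold, and all 3 sets lie below 0 for each of the 10 lowest genes.

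The gene highest in level among those higher in SC300 was Cst3, which encodes the secreted protease inhibitor cystatin C. It had 5190 UMIs in the 112 Control members and 10926 UMIs in the 67 SC300 members, or 3419 and 8633 CPM, 2.52-fold higher (log2 ratio 1.34, 1.29 to 1.38). All members held it, with a median of 13.2 UMIs per 10000 in Control and 58.2 in SC300, and ranges of 1.86 to 254 and 2.27 to 308 that overlapped. Without the Adm-only members the levels were 2513 and 7618 CPM (1.60). Other tanycytes gave 0.31. Cells past the ciliary limit gave 1.16 (1.07 to 1.24), at 629 and 1401 CPM, so the rise was not particular to the members. Microglia-type cells held 82511 and 76030 CPM of it and astrocyte-type cells 13094 and 13262 CPM, and the part of RNA from other cells in the members' difference was not tested.

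Map2, a microtubule protein gene of neuronal processes, had 393 and 713 UMIs, or 259 and 563 CPM (1.12, 0.94 to 1.30). It was found in 95 of 112 and 63 of 67 members. Snap25 was found in 10 and 5, with at most 1 UMI in a cell because the rule limits it. Hspb1, a small heat-shock protein gene, had 56 UMIs in 12 Control members and 140 in 30 SC300 members (1.58, 1.13 to 2.06), and 71.4% of the Control UMIs were in 3 cells. Adm-only members held 62.5% of its Control UMIs, and without them it had 21 and 94 UMIs (2.53, 1.84 to 3.29). Myl9, a myosin light chain gene of contractile cells, had 53 and 106 UMIs (1.26), and Flnc, an actin cross-linker gene, 38 and 68 (1.10). Cav1, which forms caveolae, had 55 and 100 UMIs (1.12), and 0.50 without the Adm-only members. The receptor kinase gene Alk, Ly6h, Ppp1r1a and the histone gene H2afx had log2 ratios of 1.16, 1.14, 1.13 and 1.09. Other tanycytes gave 1.53 for Hspb1, 1.28 for Myl9, 1.11 for Ly6h, 0.72 for Cav1 and 0.69 for Map2. They gave 0.64 for Ppp1r1a, 0.40 for Alk, 0.16 for Flnc and −0.16 for H2afx. Tagln, an actin-binding protein gene of contractile cells, was at 550 and 1020 CPM (0.89, 0.76 to 1.02, and 1.07 without the Adm-only members), while Acta2 was at 0 in both libraries.

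Of the 29 higher genes, 16 had over 50% of their SC300 UMIs in 3 cells. The 4 haemoglobin genes were the highest, led in ratio by Hbb with 16 and 394 UMIs (4.88). In SC300 members, 8198 of 8761 haemoglobin UMIs (93.6%) lay in a single Adm-only cell, and without the Adm-only members Hbb gave −1.01. The endothelial and mural genes Cldn5, Flt1 and Vtn gave 1.80, 1.55 and 2.45 over all members, and −4.44, −2.33 and −2.80 without the Adm-only cells, unlike Tagln of the mural list. Itm2a, Srgn and Id1 turned in the same way, to −0.79, −3.09 and −2.44. These values also rest on few Control cells. In Control members 1 cell held all 18 UMIs of Vtn, and 3 cells held 93.9% of those of Cldn5 and 93.6% of Flt1. For Itm2a, Srgn and Id1 the Control share of 3 cells was 84.9%, 96% and 80.6%. The other few-cell genes, among them Cox6a2, Ttc23 and Synm, stayed higher, with log2 ratios without the Adm-only members of 2.91, 2.07 and 1.62.

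Other lists had few genes past 2-fold, beside 1.52% lower and 0.735% higher over all 3944 genes. Of 12 tested cilia genes, 0 were past 2-fold in either direction and the median was 0.01, but the 3 ciliary genes that the rule limits were among them. The progenitor and Notch list of 16 tested genes had 0 lower and 1 higher, Id1, with a median of −0.17. Adm-only members held 95.5% of the SC300 UMIs of Id1, which gave −2.44 without them. Without the Adm-only members the progenitor and Notch list had 1 lower, Id3 (−1.80), and 0 higher of 13, beside 1.66% and 0.63% of 3493 genes. Sox2, a progenitor transcription factor, was at 940 and 820 CPM (−0.20). Of 22 tested genes of iron handling and oxidative stress, Hmox1 alone passed 2-fold (1 lower, 0 higher), with a median of −0.32, and their intervals lay below 0 for 15 and above 0 for 0. In the members with another marker than Adm, 9 of 20 intervals lay below 0 and 0 genes passed 2-fold. Over all 3944 genes, 17% had an interval below 0 and 8.72% above 0. Without the Adm-only members, 573 and 371 of 3493 intervals lay below and above 0. Estrogen receptors and most steroid-pathway genes were too low in the members: of 9 listed genes, only Pgrmc1 reached 100 UMIs, at 503 and 367 CPM (−0.45). 

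A list of immediate-early and stress genes, which respond to stimulation and to dissociation, changed its count with the Adm-only members. Of 11 tested genes 0 were at least 2-fold lower and 1 higher, the heat-shock gene Hspb1, with 5 intervals below 0, 3 above 0 and a median of −0.22. With them left out 3 were lower and 1 higher, with 7 intervals below 0, 1 above 0 and a median of −0.46. Over all genes 1.52% were lower and 0.735% higher, with 17% of intervals below and 8.72% above 0; without the Adm-only members 1.66% and 0.63% were lower and higher, with 573 and 371 of 3493 intervals below and above 0. The 3 were the transcription factor genes Egr1 (−1.31, and −0.97 with all members) and Junb (−1.13 and −0.77), and Ier2 (−1.23 and −0.92).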

How the data were processed

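Hypothalamic cells were captured with the 10x Genomics 3′ kit, version 3, and the authors deposited whole-number UMI counts per gene and barcode made with Cell Ranger 3.0.1 (per the labels; an Ensembl transcriptome per the methods). The deposited counts hold 4488 Control and 4524 SC300 barcodes with 52004789 and 57013099 UMIs over 32883 genes. Barcodes under 200 detected genes were dropped, as in the methods (leaving 4296 and 4379 cells). The methods give 2 pairs of cell numbers, 1 equal to the deposited barcodes and 1 lower than the cells kept here. Foxj1, a ciliary gene of the rule, was not analysed here. A few listed genes are not reported here and were left out of their lists. The members and gene lists were chosen with earlier results of these data known. UMIs were summed over the members of each library and scaled to CPM. Log2 ratios carry exact conditional binomial intervals and shares carry exact binomial (Clopper-Pearson) intervals, both for counting error only; genes with at least 100 UMIs were used, and 2-fold was the limit of description. Named genes were the rule genes, members of the lists, and the 10 lowest and 10 highest by ratio in each comparison, unless 3 cells held over 50% of the UMIs in the higher library. Astrocyte-type cells had at least 3 of Agt, Aqp4, Slc1a2, Ntsr2, Gjb6 and Aldh1l1, microglia-type cells at least 3 of Tmem119, Cx3cr1, P2ry12 and Csf1r. Doublets were called with Scrublet in scanpy 1.11.5 and kept in the main results. The interval was checked on simulated counts with the same rate of a gene in all cells of a group. Variation between cells was therefore not checked. The 12 alternatives covered the rule, doublets, scaling, cell weighting, low counts and top cells, and 2 more were added after the data were seen. Python 3.11.15, numpy 2.4.6, scipy 1.17.1 and pandas 2.3.3 were used.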

Additional observations from a re-analysis of the deposited data

Results flagged for a closer look

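For 5 listed or named genes with at least 100 UMIs in both sets of cells the intervals of the SC300 over Control ratio lay on opposite sides of 0 in the members and in the tanycytes without the 4 markers, with log2 ratios at least 1 apart. Dlk1 (−0.38 in members and 1.69 in other tanycytes) and Six6 (−0.43 and 1.15) did the same, with 21 Control and 59 SC300 UMIs of Dlk1 and 15 and 29 UMIs of Six6 in the other tanycytes, under that limit. Without the Adm-only cells Dlk1 gave −0.28 (−0.43 to −0.13) in members. Six6 then gave −0.32 with an interval that held 0 (−0.67 to 0.03). Gfap, an intermediate filament gene of astrocytes, gave −1.72 in members and 0.37 in other tanycytes, with 798 and 202 UMIs in the members and −2.72 without the Adm-only cells, and 3 cells held 66.4% of its Control UMIs and 69.8% of its SC300 UMIs in the members. Ier2 gave −0.92 in members and 0.29 in other tanycytes, and Junb gave −0.77 and 0.36. Both are immediate-early genes. Olig1, a transcription factor of the oligodendrocyte lineage, gave −0.74 in members and 0.47 in other tanycytes, and −0.15 in members without the Adm-only cells. Scgb1c1, a secretoglobin gene, gave −2.74 in members and 0.51 in other tanycytes, and 3 cells held 54.5% of its Control UMIs in the members. The differences between the cell sets were not tested.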

How the results depend on the processing

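No paired analysis was possible because each group had 1 library, and for the same reason no replicate could be left out. The log2 ratio of the members' share of kept cells stayed below 0 under all alternatives that changed the cells, and was −1.44 when cells were thinned to 2000 UMIs before the rule. Thinning also gave 31 genes at least 2-fold lower and 4 higher in SC300, and 27 genes higher and 73 lower in members than in other tanycytes, from fewer cells and genes. With at least 50 UMIs per gene the counts were 112 lower and 82 higher in SC300 and 105 higher in members, and with at least 200 UMIs 25 and 12 genes were lower and higher in SC300. The genes lower in members than in other tanycytes numbered 460 when 2 UMIs of the markers were required, 437 when the 3 cells with most UMIs of a gene were left out and 478 without the Adm-only members (an alternative chosen after seeing the data). Requiring 4 tanycyte genes gave 39 higher and 100 lower there. The cause of these shifts was not tested. Of 46 listed or named genes past 2-fold in SC300, 10 turned sign under some alternative, in 31 of 551 values, and all 10 were among those resting on few cells. Requiring 2 marker UMIs gave Hbb −1.27, Hba-a2.1 −1.84, Hba-a2 −2.39 and LOC103694857 −2.14. Requiring 4 tanycyte genes gave −1.04, −1.99, −2.57 and −2.07 in that order, and Vtn −0.30, Cldn5 −1.13 and Id1 −0.37. Thinning gave −1.83, −1.92, −1.10 and −2.08, and Cldn5 −0.66. Without the 3 top cells the values were −0.93, −1.85, −2.47 and −2.02, and Vtn −0.25. Without the Adm-only members they were −1.01, −1.94, −2.61 and −2.07, with Vtn −2.80, Cldn5 −4.44, Itm2a −0.79, Flt1 −2.33, Srgn −3.09 and Id1 −2.44. Depth limits the rule, since 1 UMI of a marker decides membership, and genes under 100 UMIs in the members were left out of the counts of SC300 over Control.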
